A study of Mus musculus with 6 samples.

Results

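Ribosome biogenesis and RNA polymerase I genes were followed here as a set of 50 named genes, found by symbol among the 47593 gene rows of an RNA-seq table; all 50 were present, and all 50 passed the filter on low values. They fall into 5 roles: 7 genes of polymerase I transcription, 8 of small nucleolar ribonucleoproteins (snoRNPs) and rRNA modification, 14 of small subunit assembly, 17 of large subunit assembly, and 4 genes of abundant nucleolar proteins. The cells were mouse bone marrow cells from the femur, selected for c-Kit, a receptor tyrosine kinase found on early blood cells. All 6 samples carried the retrovirus MSCVneo-MLL-AF9, so that a leukaemia fusion of the histone methyltransferase MLL with AF9 was made from the virus and not from the cells' own genes, and all were selected with G418 and passaged in methylcellulose with cytokines. In 3 libraries the fusion was WT and in 3 it had the E531R substitution in AF9. No group lacked the fusion, so the comparison is between 2 forms of it. The labels give neither the age, sex or strain of the mice nor whether replicates were separate animals, infections or cultures, so p-values cover the spread among these libraries only, which may be technical.

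Ribosome production starts in the nucleolus, where RNA polymerase I copies the rRNA genes into one long precursor. SnoRNPs guide its methylation and pseudouridylation, and separate sets of assembly factors cut, fold and pack it into the small and the large subunit. Many of these genes are textbook targets of MYC, which binds the E-box CACGTG, and leukaemic and other fast-growing cells usually express them strongly.

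Values are normalised read counts, the gene's reads divided by a size factor for its library, and log2 fold changes are of E531R over WT on the log2(value + 1) scale, fitted with limma over 12991 genes. Libraries held 14161139 to 33459668 reads assigned to genes, and the least covered member had 516 reads in the library where it was lowest, a counting error of 4.40%. WT replicate 3 stood apart. The SD of its log2 deviation from the other WT libraries, over all tested genes, was 0.603, against 0.365 and 0.389 for WT replicates 1 and 2 and 0.194 to 0.232 for the E531R libraries. Its deviation rose with the GC content of the transcript, so most results are given with all 6 libraries and again without WT replicate 3, which leaves 2 WT against 3 E531R libraries.

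The ribosome biogenesis genes were mostly a little lower in E531R cells, and the differences were small. Over the 6 libraries the fitted log2 fold change was below 0 in 43 of the 50 genes, against 48.6% of all tested genes, and its median was -0.17, against 0.01 over all tested genes. At an adjusted p under 0.05, 5 genes fell and 0 rose. The 5 that fell were Polr1a, Polr1b, Polr1c, Nolc1 and Wdr12. They make up 10% of the set, close to the 9.53% of all tested genes that were lower in this comparison (10.4% were higher), so this count does not set the genes apart. At an unadjusted p under 0.05, 16 were lower and 0 higher (16.5% and 16.2% of all tested genes), and edgeR on the recovered reads called 6 lower and 0 higher (9.63% and 10.7%).

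Without WT replicate 3 more genes passed, with smaller differences. Then 29 of the 50 genes fell and 1, Rrs1, rose, which is 58% of the set lower where 23.1% of all tested genes were lower and 24.3% higher. The median log2 fold change was smaller, -0.13 against -0.01 over all tested genes, or 8.51% lower on the linear scale, and 46 of 50 values were below 0 (51.3% of all tested genes). At an unadjusted p under 0.05, 34 were then lower and 1 higher (26.2% and 26.9% of all tested genes). The error shrank as well: the median SE of the log2 fold change went from 0.0956 to 0.0419, and it was smaller for 50 of 50 genes. The library left out was the one that deviated most, so the smaller error is no separate result, and it rests on 2 WT libraries. All 5 genes that fell over the 6 libraries also fell without WT replicate 3, each by a smaller log2 fold change. The count of lower genes also moved with other libraries: it was 2 without WT replicate 1, 0 without E531R replicate 1, 0 without E531R replicate 2 and 1 without E531R replicate 3. In bulk RNA, fewer cells of a type and less of a transcript per cell cannot be told apart.

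In each library's own values the groups were often apart. Every E531R value lay below every WT value in 29 of the 50 genes, a layout that 22.8% of all tested genes had, and above every WT value in 1 gene (21.2%). Against WT replicates 1 and 2 alone the numbers were 40 genes (32.2% of all tested genes) and 1 gene (32.1%). Measured from the mean of the E531R libraries, the median gene of the set was 0.14 higher on the log2 scale in WT replicate 1, 0.13 higher in WT replicate 2 and 0.32 higher in WT replicate 3. The summed level of the 50 genes followed another order. It made up 1.26%, 1.29% and 1.10% of all values in WT replicates 1, 2 and 3, and 1.10%, 1.09% and 1.11% in the E531R libraries. By this share WT replicate 3 was level with E531R. The sum itself was 285026, 290538 and 264529 in WT and 255615, 252704 and 261774 in E531R. By the sum WT replicate 3 thus lay above each E531R library. Ncl and Npm1, described below, had the 2 highest mean values of the 50 genes and were both lowest in WT replicate 3.

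**Figure D1:**
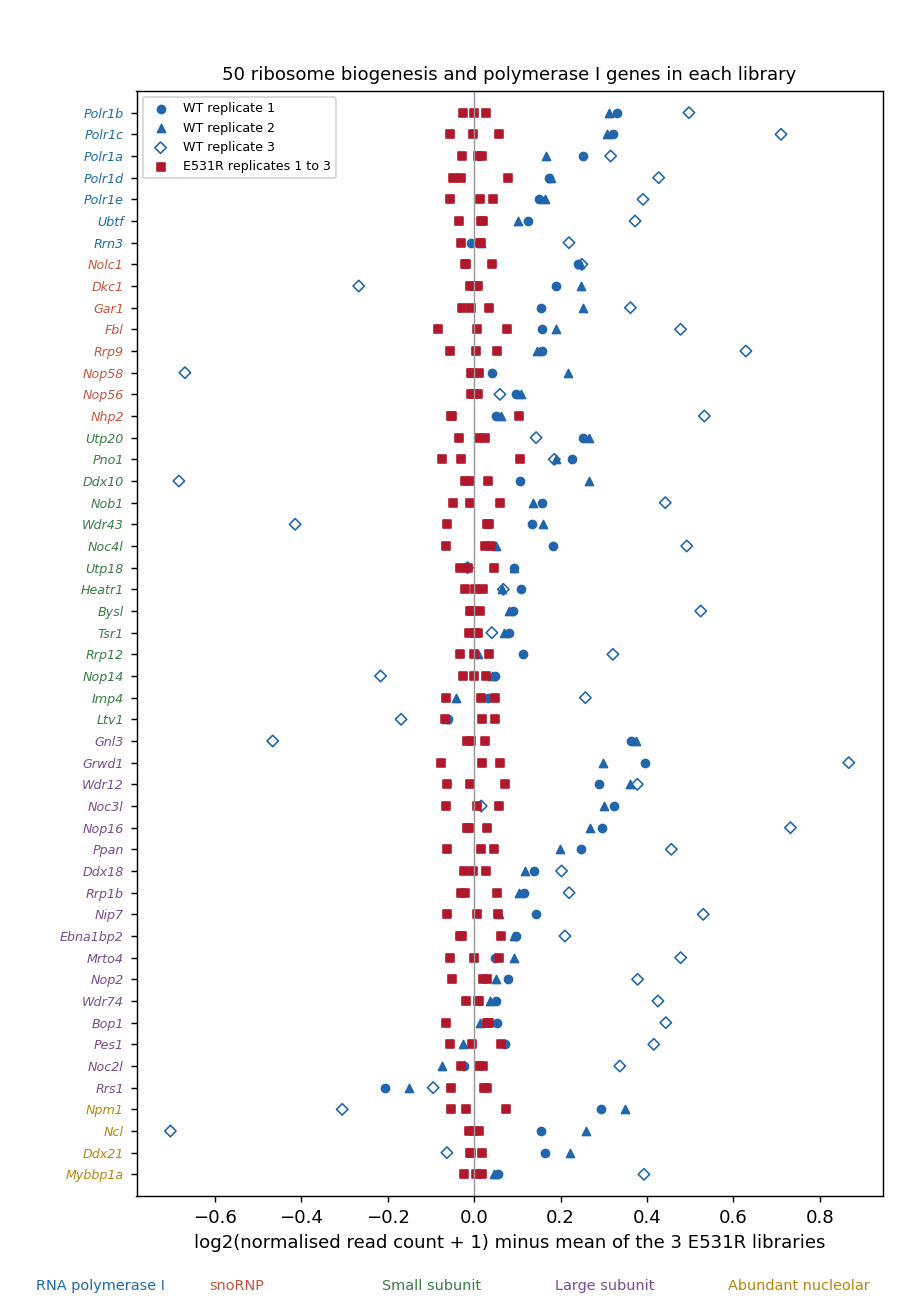
Each row is 1 of the 50 genes, coloured by role, and each point is 1 library: log2(normalised read count + 1) minus the mean of the 3 E531R libraries (x axis). Blue filled circles and triangles are WT replicates 1 and 2, open diamonds WT replicate 3 and red squares the 3 E531R libraries; in 40 genes both filled blue points lie to the right of all red squares, while the open diamonds lie far on either side, from Ncl on the left to Grwd1 on the right.

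The promoters were searched for the E-box CACGTG. The 50 genes were picked as a MYC-driven program, so finding the motif among them is no independent result. RefSeq promoters (GRCm38.p6, from 250 bases before the start to the first 50 bases from the start on) were matched for 45 of the 50 genes by symbol. The motif, which reads the same on both strands and so was searched once, stood in 12 of these 45 promoters (26.7%), against 10.5% of the 9238 tested genes with a promoter in the table and 7.66% of all 20595 promoters. In the last 50 bases alone it stood in 8 of the 45 (17.8%) against 1.66% of tested genes. Those 8 sites, 30 bases each, are printed because the motif sits just inside the transcribed start in each; they were chosen after the values were seen. Capitals mark the motif, and positions count from 1 at the start site.
Wdr43 (chr17:71616220-71616249, plus strand, motif from base 18): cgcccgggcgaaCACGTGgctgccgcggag
Utp20 (chr10:88826765-88826794, minus strand, motif from base 38): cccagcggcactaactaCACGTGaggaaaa
Tsr1 (chr11:74898092-74898121, plus strand, motif from base 25): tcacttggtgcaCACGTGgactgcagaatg
Ltv1 (chr10:13193092-13193121, minus strand, motif from base 29): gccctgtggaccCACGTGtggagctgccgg
Pno1 (chr11:17211540-17211569, minus strand, motif from base 38): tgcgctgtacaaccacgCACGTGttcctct
Pes1 (chr11:3963965-3963994, plus strand, motif from base 3): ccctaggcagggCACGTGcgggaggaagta
Grwd1 (chr7:45830740-45830769, minus strand, motif from base 35): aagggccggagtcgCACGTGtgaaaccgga
Mybbp1a (chr11:72441347-72441376, plus strand, motif from base 41): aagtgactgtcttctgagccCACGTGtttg
A match describes letters, not binding. None of the 5 genes that fell over the 6 libraries held the motif in its promoter. With WT replicate 3 left out, 4 of the 12 genes with the motif and 23 of the 33 without it fell (23.1% of all tested genes). The median log2 fold changes were -0.07 and -0.15. Whether genes with and without the motif differ was not tested. The mean level of Myc itself was 5993 ± 436 with the WT fusion and 5463 ± 120 with E531R (SD over 3 libraries each), and its log2 fold change of -0.13 did not pass (limma adjusted p = 0.278; without WT replicate 3, -0.07 and limma adjusted p = 0.118). Of 10 tested genes of MYC and its partners 3 rose and 0 fell over the 6 libraries (10.4% and 9.53% of all tested genes). Then 5 rose and 1 fell without WT replicate 3 (24.3% and 23.1%). The 3 that rose over the 6 libraries, Mxd1, Mxi1 and Mxd3, encode proteins that pair with MAX and oppose MYC at E-boxes. Their log2 fold changes were 0.86, 0.33 and 0.58 (limma adjusted p = 0.00150, 0.0205 and 0.0209), and without WT replicate 3 they were 0.96, 0.39 and 0.71 (limma adjusted p = 3.28e-10, 4.65e-07 and 1.40e-05). Mxd1 kept its call whichever library was left out, while Mxi1 and Mxd3 kept theirs only without WT replicate 3 (limma adjusted p = 0.0642 to 0.105 and 0.0568 to 0.0892 without another library). Mnt and Mlx, which also rose without WT replicate 3, and Mga, which then fell, had log2 fold changes of 0.19, 0.18 and -0.25 in that fit. Mxd4, of the same list, passed in neither fit. Its log2 fold change was -0.10 over the 6 libraries (limma adjusted p = 0.565) and -0.0071 without WT replicate 3 (limma adjusted p = 0.939).

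The 7 polymerase I genes all had a log2 fold change below 0, with a median of -0.24, or -0.18 without WT replicate 3. Over the 6 libraries 3 fell, where 9.53% of all tested genes were lower. With WT replicate 3 left out 6 fell, where 23.1% of all tested genes were lower. Polr1b (chr2:129100995-129126594, GRCm38), the second-largest subunit, had 2591, 2560.2 and 2909 in the WT libraries and 2060.4, 2099 and 2024 in the E531R libraries. No E531R value came near a WT value, and the log2 fold change was -0.38 (standard error 0.074; limma adjusted p = 0.0117), or -0.32 (standard error 0.040; limma adjusted p = 4.56e-06) without WT replicate 3. Polr1c, a subunit shared with RNA polymerase III (chr17:46243920-46248054), had 1331, 1319 and 1744 in the WT libraries and 1064, 1025 and 1109.7 in the E531R libraries, the WT value of replicate 3 being the highest. Its log2 fold change was -0.45 (standard error 0.12; limma adjusted p = 0.0424), and -0.31 (standard error 0.050; limma adjusted p = 6.29e-05) without WT replicate 3. Polr1a, the largest and catalytic subunit (chr6:71909053-71984935), had 3606, 3398 and 3769 in the WT libraries and 2971, 3065 and 3048 in the E531R libraries. The groups did not overlap, and the log2 fold change was -0.24 (standard error 0.067; limma adjusted p = 0.0442), or -0.21 (standard error 0.040; limma adjusted p = 0.000373) without WT replicate 3.

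The other 4 genes of this role did not pass over the 6 libraries. Polr1d, also shared with polymerase III, had 2894, 2904 and 3451 in the WT libraries and 2514, 2483 and 2708 in the E531R libraries. Polr1e, a polymerase-associated factor and the gene with the lowest mean of the 50, had 824, 831 and 973 in the WT libraries and 748, 713 and 765 in the E531R libraries. In both genes all E531R values lay below all WT values, with log2 fold changes of -0.26 (standard error 0.091; limma adjusted p = 0.0961) and -0.23 (standard error 0.090; limma adjusted p = 0.123). Ubtf, the factor that binds rRNA gene promoters, had 7638, 7521 and 9073 in the WT libraries and 7103, 6843 and 7082 in the E531R libraries. Its groups did not overlap either, but WT replicate 3 lay far above the other WT libraries, and the log2 fold change was -0.20 (standard error 0.089; limma adjusted p = 0.176). With WT replicate 3 left out, Polr1d, Polr1e and Ubtf fell, with log2 fold changes of -0.18 (standard error 0.044; limma adjusted p = 0.00325), -0.16 (standard error 0.056; limma adjusted p = 0.0290) and -0.11 (standard error 0.036; limma adjusted p = 0.0159). Rrn3, which brings the polymerase to the promoter, was the 1 gene of this role whose groups overlapped, with 2908, 2955 and 3403 in the WT libraries and 2863, 2956 and 2949.6 in the E531R libraries. Here WT replicates 1 and 2 lay among the E531R values. Its log2 fold change was -0.08 (standard error 0.080; limma adjusted p = 0.549) over the 6 libraries and with WT replicate 3 left out -0.0044 (standard error 0.038; limma adjusted p = 0.937), with a 95% interval of -0.085 to 0.077.

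Each of the 3 calls in this role was kept without WT replicate 3 but lost without some other single library. Polr1b did not pass without E531R replicate 1, 2 or 3 (limma adjusted p = 0.0666, 0.0578 and 0.0658). Polr1c did not pass without WT replicate 1 or E531R replicate 1, 2 or 3 (0.0612, 0.143, 0.161 and 0.113). Polr1a did not pass without WT replicate 1 or 2 or E531R replicate 1, 2 or 3 (0.126, 0.0501, 0.195, 0.160 and 0.147), nor when the recovered reads were tested with DESeq2 (adjusted p = 0.0523). In the 6 fits that each leave out 1 library, the calls for Polr1a, Polr1b and Polr1c held together only without WT replicate 3.

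**Figure D2:**
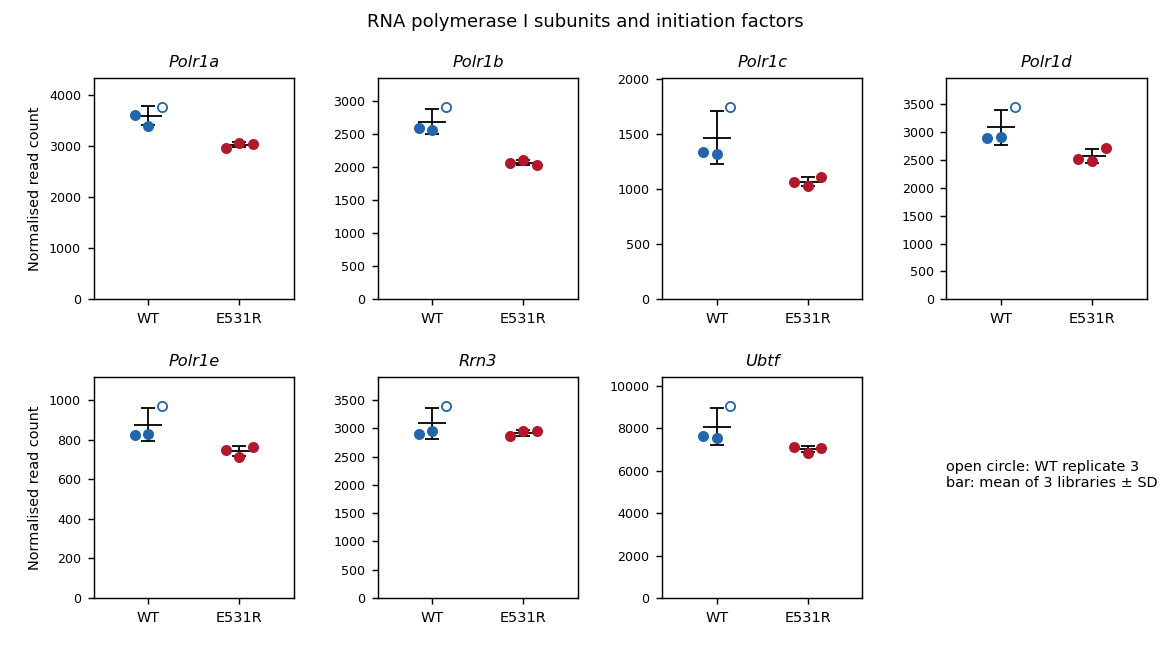
Normalised read counts (y axis, from 0, its own scale in each panel) of the 7 polymerase I genes in 3 WT (blue) and 3 E531R (red) libraries; the open circle is WT replicate 3, and bars give the mean ± SD of 3 libraries. E531R points lie below all WT points in every panel except Rrn3, where 2956 in E531R replicate 2 lies above 2908 and 2955 in WT replicates 1 and 2.

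Per length of transcript, Polr1e, Polr1a and Polr1b were among the less abundant of the 50 genes. On the scale of normalised read counts per kilobase of the annotated main transcript, averaged over 6 libraries, Polr1e stood at 271, Polr1a at 359, Polr1b at 594 and Polr1c at 963. Polr1d, with 2362, and Ubtf, with 2425, were several times higher. The highest levels per kilobase in the set were those of Npm1 (20969.7), Fbl (5785), Ncl (5767) and Nhp2 (5445), and the lowest was that of Noc3l (262). Fbl and Ncl, neighbours in this order, were not apart, since Ncl alone ran from 29433 to 57304 across the WT libraries and its level per kilobase rests on an annotated transcript of 8202 bases.

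Of the 8 snoRNP genes 1 fell over the 6 libraries (9.53% of all tested genes) and 7 fell without WT replicate 3 (23.1%). The medians were -0.23 and -0.16. Nolc1, a chaperone of snoRNPs in the nucleolus (chr19:46075863-46085530), had 8778, 8807 and 8836 in the WT libraries and 7339, 7319 and 7648 in the E531R libraries. The WT values were nearly equal, and the log2 fold change was -0.24 (standard error 0.060; limma adjusted p = 0.0307) with WT replicate 3 and -0.24 (standard error 0.036; limma adjusted p = 3.44e-05) without it. The call was lost without WT replicate 1 or 2 or E531R replicate 1, 2 or 3 (limma adjusted p = 0.0996, 0.0797, 0.163, 0.165 and 0.0942) and with no filter on low values (0.0839). Gar1, a protein of the H/ACA snoRNPs that guide pseudouridylation, had 2417, 2582 and 2788 in the WT libraries and 2159, 2127 and 2223 in the E531R libraries. Fbl, the methyltransferase of the C/D snoRNPs, had 6969, 7120.4 and 8699 in the WT libraries and 6279, 5899 and 6582 in the E531R libraries. Rrp9, a protein of the U3 snoRNP, had 2066, 2049 and 2867 in the WT libraries and 1859, 1784 and 1922 in the E531R libraries. In these 3 genes the groups did not overlap and WT replicate 3 was the highest library. Their log2 fold changes did not pass over the 6 libraries, with -0.26 (standard error 0.075; limma adjusted p = 0.0552), -0.27 (standard error 0.10; limma adjusted p = 0.116) and -0.31 (standard error 0.14; limma adjusted p = 0.172), and all 3 fell without WT replicate 3, with -0.20 (standard error 0.043; limma adjusted p = 0.000919), -0.17 (standard error 0.043; limma adjusted p = 0.00340) and -0.15 (standard error 0.044; limma adjusted p = 0.00956).

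Nhp2, another H/ACA protein, was the snoRNP gene that did not pass either way, with 5399, 5442 and 7542 in the WT libraries and 5024, 5032 and 5603 in the E531R libraries. E531R replicate 3 lay above WT replicates 1 and 2, and without WT replicate 3 the log2 fold change was -0.06 (standard error 0.045; limma adjusted p = 0.334). The C/D core proteins Nop56 and Nop58 and the pseudouridine synthase Dkc1 had values between 3187 and 7839. Their log2 fold changes ran from -0.09 to 0.14 over the 6 libraries, with the smallest limma adjusted p at 0.355, and from -0.22 to -0.10 without WT replicate 3, where all 3 fell. Nop58 and Dkc1 were 2 of 9 genes whose E531R values lay below WT replicates 1 and 2 but above WT replicate 3, a layout that 7.46% of all tested genes had; the mirror layout, which 7.58% had, was seen in 0 of the 50. The other 7 were Nop14, Wdr43, Ddx10, Gnl3, Ncl, Npm1 and Ddx21.

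Small subunit assembly genes had the median closest to 0 of the 5 roles in both fits. Of 14 genes 0 passed over the 6 libraries, where 9.53% of all tested genes were lower and 10.4% higher. At an unadjusted p under 0.05, 3 were lower and 0 higher (16.5% and 16.2% of all tested genes). EdgeR called 0 (9.63% lower and 10.7% higher), and 5 fell without WT replicate 3 (23.1% lower). The medians were -0.08 and -0.09. Utp20, a large scaffold of the processome that builds the small subunit, had 3979.6, 4018 and 3690.1 in the WT libraries and 3262, 3365 and 3397 in the E531R libraries. Its values separated the groups, with a log2 fold change of -0.22 (standard error 0.066; limma adjusted p = 0.0592) that missed the threshold, and -0.26 (standard error 0.037; limma adjusted p = 2.46e-05) without WT replicate 3. Pno1 and Nob1 act together late in maturation, where Nob1 cuts the end of the 18S rRNA. Pno1 had 1767, 1722 and 1718 in the WT libraries and 1434, 1478 and 1627 in the E531R libraries. Nob1 had 2420.0, 2383 and 2948 in the WT libraries and 2096, 2155 and 2260.4 in the E531R libraries. Neither passed over the 6 libraries (limma adjusted p = 0.107 and 0.136), and without WT replicate 3 they fell, with log2 fold changes of -0.21 (standard error 0.052; limma adjusted p = 0.00372) and -0.15 (standard error 0.043; limma adjusted p = 0.00970). Noc4l, a partner of Nop14 in the processome, had 2288, 2087 and 2833 in the WT libraries and 2050.0, 1926 and 2071 in the E531R libraries. It did not pass in either fit, with log2 fold changes of -0.24 (standard error 0.12; limma adjusted p = 0.210) and -0.12 (standard error 0.049; limma adjusted p = 0.0578), although the groups did not overlap.

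The other 10 genes of this role, Nop14, Wdr43, Rrp12, Utp18, Heatr1, Imp4, Bysl, Tsr1, Ltv1 and Ddx10, had values between 1096 and 5311. Without WT replicate 3, 2 of them fell, Wdr43, a processome protein needed for rRNA transcription, and Ddx10, an RNA helicase, and the log2 fold changes ran from -0.19 to 0.06. Ltv1, a factor that leaves the small subunit late in its maturation, lay above 0 in both fits, at 0.10 and 0.06, and passed in neither.

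Large subunit assembly genes had the widest range of fold changes of the 5 roles. Of 17 genes 1 fell and 0 rose over the 6 libraries (9.53% and 10.4% of all tested genes). With WT replicate 3 left out 8 fell and 1 rose (23.1% and 24.3%). The medians were -0.17 and -0.10. Wdr12 (chr1:60069785-60098645) forms the PeBoW complex with Pes1 and Bop1, which is needed to process the large subunit rRNA. It had 3407, 3585 and 3625 in the WT libraries and 2771, 2673 and 2933 in the E531R libraries, with tight WT values that all lay above E531R. The log2 fold change was -0.34 (standard error 0.068; limma adjusted p = 0.0125), and -0.32 (standard error 0.044; limma adjusted p = 1.41e-05) without WT replicate 3. The call was lost without E531R replicate 1 or 2 (limma adjusted p = 0.0770 and 0.0828). Its partners did not pass: Pes1 and Bop1 had log2 fold changes of -0.15 (standard error 0.12; limma adjusted p = 0.425) and -0.17 (standard error 0.12; limma adjusted p = 0.384), and without WT replicate 3 -0.02 (standard error 0.043; limma adjusted p = 0.703) and -0.03 (standard error 0.040; limma adjusted p = 0.513). Whether Wdr12 differed from its partners was not tested.

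Grwd1, a histone-binding assembly factor, had 2018, 1887 and 2800.4 in the WT libraries and 1553, 1456 and 1599 in the E531R libraries. Nop16, a nucleolar protein of early large subunit particles, had 2739, 2685 and 3706 in the WT libraries and 2204, 2213 and 2276 in the E531R libraries. Ppan, which acts in early large subunit assembly, had 2861, 2768 and 3307 in the WT libraries and 2437, 2308 and 2489 in the E531R libraries. In all 3 genes WT replicate 3 was the highest library, the groups did not overlap and the 6-library fit just missed the threshold, with -0.52 (standard error 0.15; limma adjusted p = 0.0532), -0.43 (standard error 0.13; limma adjusted p = 0.0597) and -0.30 (standard error 0.087; limma adjusted p = 0.0533). They fell when WT replicate 3 was left out, with smaller log2 fold changes of -0.35 (standard error 0.050; limma adjusted p = 2.29e-05), -0.28 (standard error 0.039; limma adjusted p = 1.76e-05) and -0.22 (standard error 0.043; limma adjusted p = 0.000388). Ddx18, an RNA helicase, had 3563, 3511 and 3724 in the WT libraries and 3229, 3185 and 3297 in the E531R libraries. Its log2 fold change was -0.15 (standard error 0.061; limma adjusted p = 0.137) over the 6 libraries, and it fell without WT replicate 3, with -0.13 (standard error 0.037; limma adjusted p = 0.00980).

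Gnl3 and Rrs1 marked the ends of the set without WT replicate 3. Gnl3, the nucleolar GTPase nucleostemin, had 4064, 4098 and 2286 in the WT libraries and 3122, 3142 and 3213 in the E531R libraries. WT replicates 1 and 2 lay above all E531R libraries and WT replicate 3 below them, so the log2 fold change was -0.09 (standard error 0.22; limma adjusted p = 0.799) over the 6 libraries and -0.37 (standard error 0.037; limma adjusted p = 3.72e-07) without WT replicate 3, or 22.6% lower. Rrs1, which helps bring the 5S rRNA particle into the large subunit (chr1:9545408-9547455), went the other way, with 3402, 3536 and 3674 in the WT libraries and 3988, 3783 and 4006 in the E531R libraries. It was the 1 gene with every E531R value above every WT value, with log2 fold changes of 0.15 (standard error 0.065; limma adjusted p = 0.165) and 0.18 (standard error 0.040; limma adjusted p = 0.00148). Of the 10 remaining genes of this role, Nop2, Nip7, Bop1, Pes1, Wdr74, Rrp1b, Ebna1bp2, Noc2l, Noc3l and Mrto4, 0 passed over the 6 libraries and 2, Rrp1b and Noc3l, fell without WT replicate 3. Noc2l and Noc3l form complexes in successive steps of large subunit assembly, and their log2 fold changes without WT replicate 3 were 0.05 and -0.31.

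Of the 4 genes of abundant nucleolar proteins 0 passed over the 6 libraries, where 9.53% of all tested genes were lower and 10.4% higher. There were 0 at an unadjusted p under 0.05 (16.5% lower and 16.2% higher) and 0 called by edgeR (9.63% and 10.7%). With WT replicate 3 left out 3 fell (23.1% of all tested genes). The medians were -0.11 and -0.20. Ncl (nucleolin), an RNA-binding protein of the nucleolus and the most abundant member by total count, had 53326, 57304 and 29433 in the WT libraries and 47936, 48281 and 47535 in the E531R libraries. The E531R values were close together, below WT replicates 1 and 2 and far above WT replicate 3. Its log2 fold change was 0.10 (standard error 0.24; limma adjusted p = 0.805) over the 6 libraries and turned to -0.21 (standard error 0.043; limma adjusted p = 0.000873) without WT replicate 3. Npm1 (nucleophosmin), a histone and ribosome chaperone often mutated in human myeloid leukaemia, had 39885, 41454 and 26353 in the WT libraries and 32127, 31377 and 34265 in the E531R libraries. Its log2 fold change was -0.11 (standard error 0.18; limma adjusted p = 0.689), and -0.32 (standard error 0.044; limma adjusted p = 1.58e-05) without WT replicate 3. Ddx21, an RNA helicase that acts on rRNA, had 11552, 12029 and 9869.5 in the WT libraries and 10236, 10259 and 10438 in the E531R libraries, with log2 fold changes of -0.11 (standard error 0.090; limma adjusted p = 0.450) and -0.19 (standard error 0.036; limma adjusted p = 0.000302). In Npm1 and Ddx21 WT replicate 3 was again the lowest library. Mybbp1a, a nucleolar protein that binds transcription factors, had 17132, 17018 and 21648 in the WT libraries and 16547, 16217 and 16703 in the E531R libraries, where WT replicate 3 was the highest. It passed in neither fit, with -0.16 (standard error 0.11; limma adjusted p = 0.341) and -0.05 (standard error 0.036; limma adjusted p = 0.266).

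How far WT replicate 3 stood from its group followed the GC content of the gene. It was the highest WT library in 33 of the 50 (50.7% of all tested genes) and the lowest in 16 (38.5%), and the highest of all 6 libraries in 32 (37.3%) and the lowest of all 6 in 10 (30.4%). Across the 50 genes the log2 difference of WT replicate 3 from WT replicates 1 and 2 had a Pearson r of 0.745 and a Spearman rho of 0.742 with transcript GC content, against an r of 0.577 over 12569 tested genes with a GC value; the points share 1 library, so this is a description. In the 17 genes of lowest GC (42.4% to 47.0%) WT replicate 3 was the lowest WT library in 14, and in the 17 of highest GC (53.7% to 59.8%) it was the highest WT library in 17. Ncl, Ddx10, Gnl3 and Nop58, all under 45% GC, were the 4 genes where it lay furthest below, and Grwd1, at 57.4% GC, the one where it lay furthest above. Without WT replicate 3 the fold changes themselves had an r of 0.202 with GC content. The log2 difference of WT replicate 1 from WT replicate 2 had an r of 0.411 with GC content across the 50 genes. A trend with GC content was thus not confined to WT replicate 3.

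**Figure D3:**
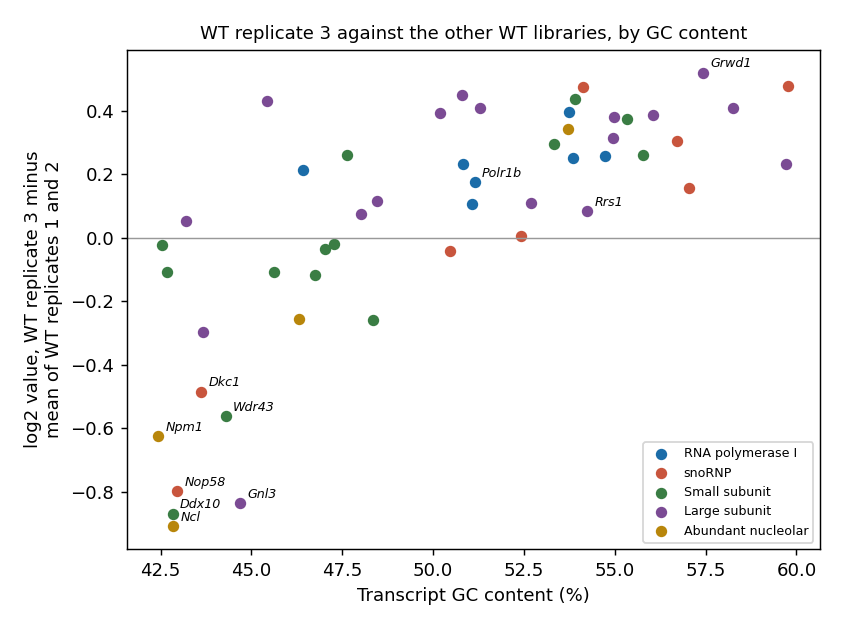
Each point is 1 of the 50 genes, coloured by role: the GC content of its transcript in percent (x axis) against the log2 value of WT replicate 3 minus the mean of WT replicates 1 and 2 (y axis). Genes with low GC, such as Ncl, Ddx10 and Nop58, lie well below 0, and genes above 55% GC all lie above 0.

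Removing a GC and length trend from each library kept WT replicate 3 in the fit and gave a count between those of the 6-library fit and the fit without it. Of the 50 genes 20 fell and 1 rose, 40% of the set lower where 16.6% of all tested genes were lower and 18.7% higher, with a median log2 fold change of -0.14. All 20 were among the 29 that fell without WT replicate 3. The polymerase I role was the fullest, with 6 of 7 genes lower: Polr1a, Polr1b, Polr1c, Polr1d, Polr1e and Ubtf. With the trend removed and WT replicate 3 also left out, an alternative added after the data were seen, 38 fell and 1 rose (25.8% and 26.5% of all tested genes), among them the 29 that fell without WT replicate 3 alone.

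Each 95% interval is for its own gene alone and covers the spread among these libraries only. Over the 6 libraries the 95% interval of the log2 fold change included 0 in 34 of the 50 genes, and in 45 of 50 its lower end lay above a 1.5-fold fall. Without WT replicate 3 this was so in 50 of 50. In 0 of the 50 genes did the fitted change reach 2-fold in either fit. The test was tried on simulated data for this comparison, where it recovered 20% of 1.5-fold and 54% of 2-fold changes among 200 changed genes of 12991. Those genes were drawn from all tested genes, low ones included, so these shares are not the recovery expected for the 50 genes. The lowest mean among the 50 was 809, and their median standard error over the 6 libraries was 0.0956.

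**Figure D4:**
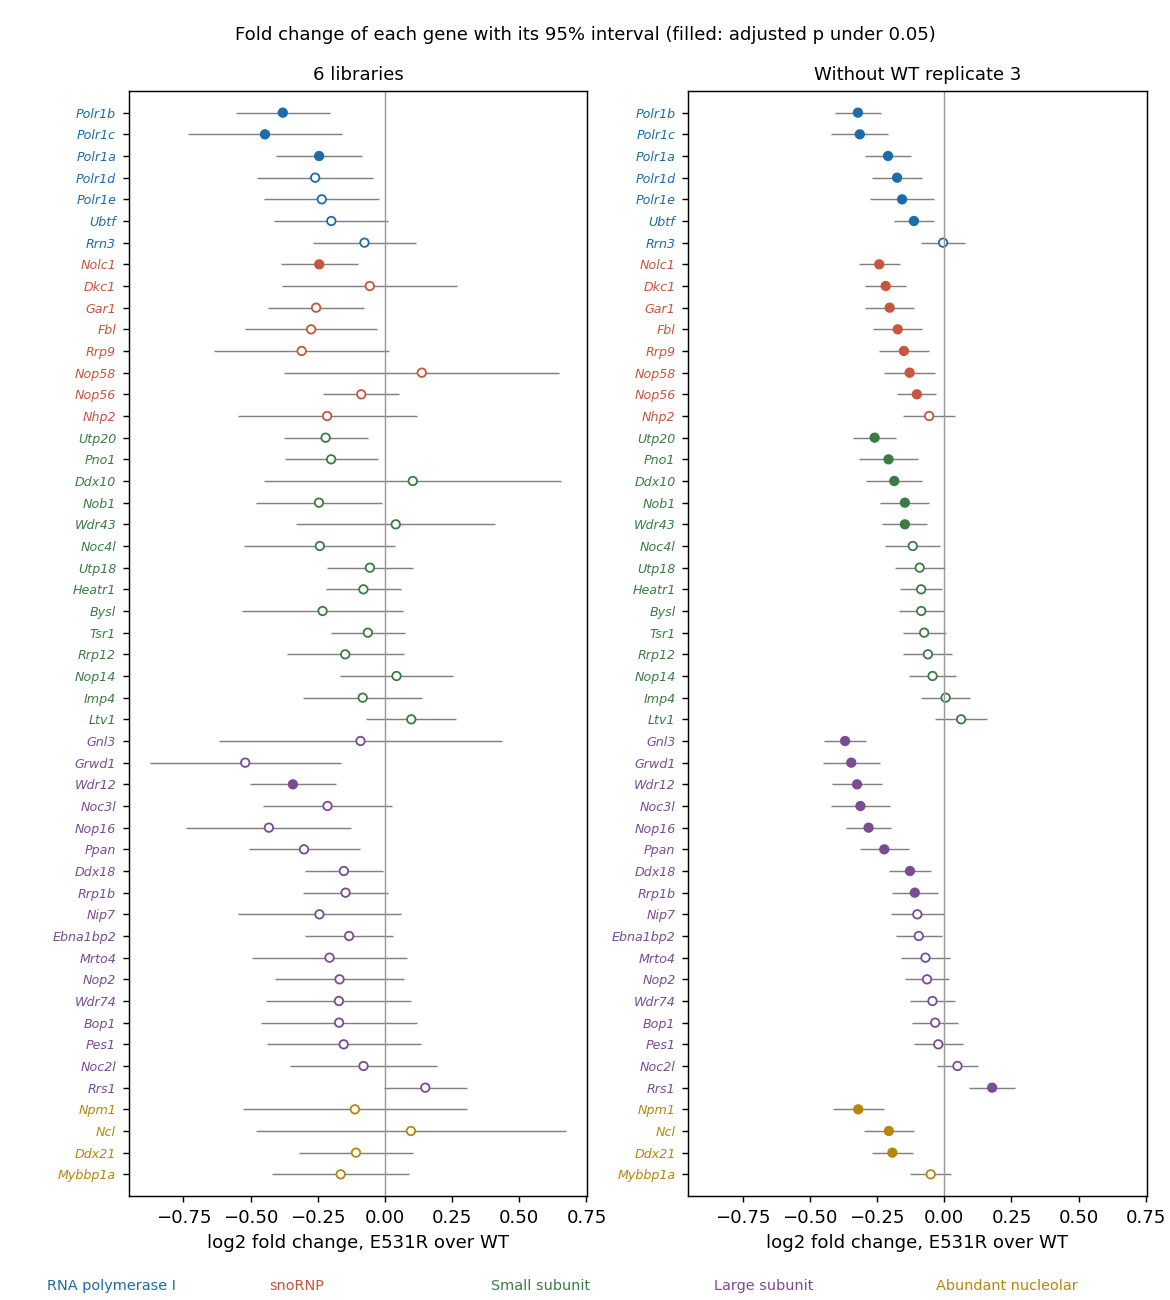
Log2 fold change of E531R over WT (x axis) of each of the 50 genes, coloured by role, with its 95% interval, for all 6 libraries (left) and without WT replicate 3 (right); filled points passed at an adjusted p under 0.05. There are 5 filled points on the left and 30 on the right, where the intervals are shorter and all filled points but Rrs1 lie below 0.

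Other genes of the same pathway also had mostly negative log2 fold changes. Of 105 tested ribosome biogenesis genes outside the 50, 83 had a log2 fold change below 0 over the 6 libraries (48.6% of all tested genes), with a median of -0.13. In that fit 10 fell and 1 rose, against 9.53% and 10.4% of all tested genes, so the count of lower genes does not set them apart. Without WT replicate 3, 50 fell and 6 rose (23.1% and 24.3% of all tested genes), with a median of -0.10. The largest difference was that of Znrd1, the small subunit of polymerase I that trims the growing RNA, whose mean level fell from 488 ± 61.7 to 256 ± 22.8 (SD over 3 libraries each) with a log2 fold change of -0.93 (limma adjusted p = 0.00224), or -0.84 (limma adjusted p = 1.91e-06) without WT replicate 3. Taf1b, a subunit of the promoter selectivity factor SL1, rose, with mean levels of 585 ± 47.3 and 739 ± 22.9 (SD over 3 libraries each) and a log2 fold change of 0.34 (limma adjusted p = 0.0348), or 0.27 (limma adjusted p = 0.00101) without WT replicate 3. The other 9, all lower, were Nop10, Ruvbl1 and Nat10 of rRNA modification and snoRNP assembly, Cirh1a, Rcl1 and Tsr2 of the small subunit, and Tex10, Rsl24d1 and Ddx51 of the large subunit. Znrd1 alone of these 11 kept its call in all 6 fits that leave out 1 library; 11 were called without WT replicate 3, 4 without WT replicate 1, 7 without WT replicate 2 and 1 without E531R replicate 1, 2 or 3.

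Polymerase III genes and ribosomal protein genes had medians nearer to 0 without WT replicate 3. Polymerase III makes 5S rRNA and tRNAs. Its list of 13 tested genes held subunits and the initiation factors Brf1 and Bdp1. The shared subunits Polr1c and Polr1d were left out, as they are among the 50. Of these 13 genes 0 passed over the 6 libraries (0 higher and 2 lower at an unadjusted p under 0.05, and 0 called by edgeR). Without WT replicate 3, 2 fell, and the medians of the 2 fits were -0.02 and -0.01, with 7 and 9 genes below 0. Of 79 ribosomal protein genes 0 passed over the 6 libraries (0 higher and 4 lower at an unadjusted p under 0.05, and 0 called by edgeR), with a median of -0.14. In that fit 77 of the 79 had a log2 fold change below 0, so mostly negative values were not particular to the 50 genes. Without WT replicate 3 the median was -0.01, with 42 of 79 below 0, 4 higher and 6 lower (24.3% and 23.1% of all tested genes). That these lists differ from the 50 genes was not tested.

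**Figure D5:**
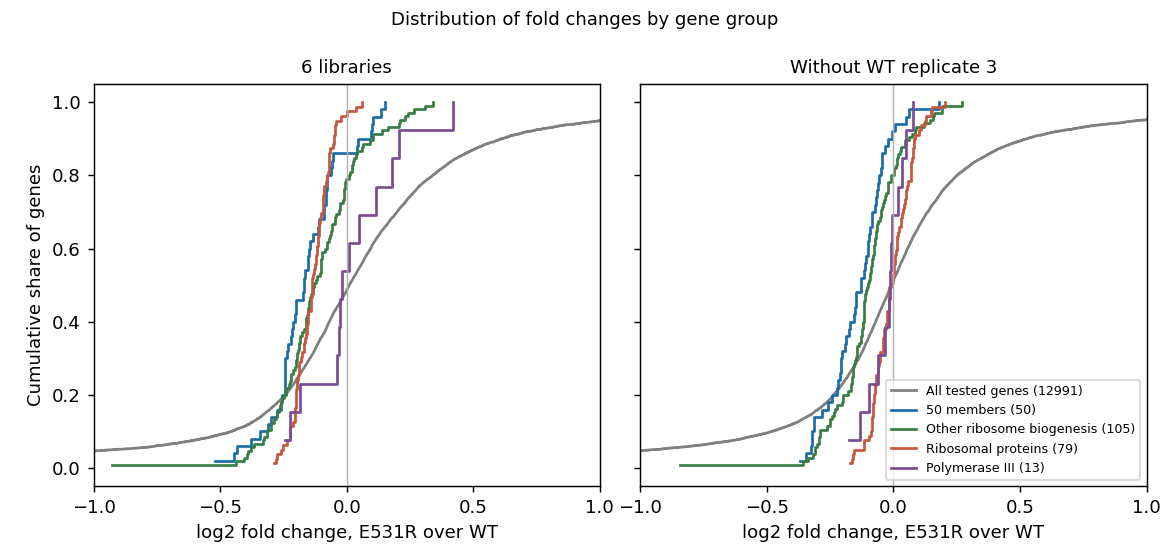
Cumulative share of genes (y axis) by log2 fold change of E531R over WT (x axis, shown from -1 to 1) for all 12991 tested genes (grey), the 50 genes (blue), 105 other ribosome biogenesis genes (green), 79 ribosomal protein genes (red) and 13 polymerase III genes (purple), over 6 libraries (left) and without WT replicate 3 (right). The ribosomal protein curve moves from a median of -0.14 to -0.01, while the median of the 50 genes is -0.17 and -0.13.

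Markers of cell identity moved with the comparison. The 6 markers of the labelled cells, Ptprc, Kit, Spi1, Myb, Cd34 and Mpo, were present in every library, and their summed level was 114886 to 125264 in WT and 163032 to 166119 in E531R. Most of that sum is Mpo, the myeloperoxidase of granulocyte precursors, with 88341 to 101899.5 in WT and 135635 to 139288 in E531R; the other 5 summed to 23365 to 26841 and 26831 to 27397, so their groups overlapped. Over the 6 libraries Spi1, Cd34 and Mpo rose and 0 fell, and Spi1 lost its call without any 1 library other than WT replicate 3 (limma adjusted p = 0.0812 to 0.119). Without WT replicate 3 the same 3 rose and the other 3 fell: Myb, a transcription factor of blood progenitors, with a log2 fold change of -0.44 (limma adjusted p = 3.40e-08), Kit with -0.11 (limma adjusted p = 0.0212) and Ptprc with -0.10 (limma adjusted p = 0.0393). Of the neutrophil granule genes 10 of 10 rose, with sums of 7337 to 9844 in WT and 72914 to 80403 in E531R, and of the monocyte and macrophage genes 8 of 9 tested rose and 1 fell, with sums of 6011 to 7991 and 13610 to 15200. Of 20 genes of dividing cells 0 passed over the 6 libraries (1 higher and 0 lower at an unadjusted p under 0.05, and 0 called by edgeR) and 7 rose without WT replicate 3, with sums of 147551 to 152047 in WT and 156593 to 158812 in E531R. Erythroid, B cell and T and NK cell markers were low, with sums of at most 28.2, 112 and 3.44 in any library, and Hba-a1, Hbb-bs, Ms4a1, Ebf1, Cd3e, Ncr1, Klrb1c and Cd8a were at 0 in all 6. The 1 tested B cell gene, Cd79b, fell without WT replicate 3, with a log2 fold change of -0.45 (limma adjusted p = 0.0333). The sum of 6 megakaryocyte genes was 91.0 to 124 in WT and 426 to 467 in E531R, with 3 of 3 tested higher. These neutrophil, monocyte and megakaryocyte counts were the same without WT replicate 3. For 6 mast cell and basophil genes it was 265 to 335 and 180.0 to 217, with 2 of 3 tested lower, 3 of 3 without WT replicate 3, and Fcer1a and Prss34 at 0. For 7 genes of stroma and endothelium it was 5461 to 6298 and 1430.0 to 1542, nearly all of it Pecam1, which fell in both fits, while Col1a1, the other gene tested, rose without WT replicate 3 alone and Cxcl12 was at 0. The part of these markers in the lower ribosome biogenesis genes was not tested.

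Where the genes lie bears on how their reads were counted. The 50 genes sit on 18 chromosomes. Nop56, Nop58, Dkc1, Wdr43, Tsr1, Gnl3, Ppan and Ncl hold 23 annotated snoRNA genes between them, and these 8 hosts had a median transcript GC of 44.5%, against 51.2% for the other 42, and a median log2 fold change without WT replicate 3 of -0.18, against -0.12. Antisense exons overlap 20 of the genes, but only in Tsr1 (32.3% of exon bases, with Srr) do they cover more than 25%. In Noc2l they cover 20.9%, with Samd11. Without a stated strand setting, reads of such partners cannot be told apart. Mrto4 is the 1 gene with pseudogenes named after it in the annotation, so its count is uncertain. Pseudogenes under other names were not searched for in any of the 50 genes.

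The authors' deposited table, from DESeq2, called 0 of the 50 genes higher and 5 lower (7.91% and 7.5% of its genes with an adjusted p). In the authors' deposited table these were Polr1b, Polr1c, Nop16, Wdr12 and Grwd1, with log2 fold changes turned to E531R over WT of -0.37, -0.44, -0.43, -0.34 and -0.52. For Polr1a and Nolc1 the authors' deposited table gives adjusted p-values of 0.112 and 0.0733.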

How the data were processed

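Gene values from RNA-seq of 3 WT and 3 E531R libraries were read from 1 table. In it the authors deposited values of unit signal: the read count of a gene over the size factor of its library. The submitters' processing notes name HISAT2 alignment to GRCm38, featureCounts and DESeq2, besides FastQC, cutadapt and SAMtools; versions, annotation and strand setting are not stated. Whole reads were recovered, since 100% of values were whole multiples of 1 read within 0.001. Per the file headers the authors also give a log2 fold change, its error, a score (the test statistic), a p-value and an adjusted p-value; the sign, WT over E531R, was turned here. Size factors cannot show a shift shared by all genes, and counting leaves overlapping, antisense and near-identical genes uncertain.

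E531R was compared with WT by limma 3.58.1 (R 4.3.3, trend on mean level, two-sided, no covariate) on log2(value + 1) for the 12991 genes whose mean reached 10, with Benjamini-Hochberg adjustment at 0.05; this scale understates changes of low genes. Checked on simulated data for E531R against WT (200 of 12991 genes changed), it recovered 20%, 54%, 94% and 96% of 1.5-, 2-, 4- and 8-fold changes, with 9 false calls. Alternatives, compared in the closing section, changed the pseudocount (0.5, 10), the filter (none, 50), the scaling (TMM, upper-quartile) or the test (edgeR 4.0.16, DESeq2 1.42.0 or voom on recovered reads). Others used array weights or the replicate number as a block, removed a GC and length trend (splines with 5 degrees of freedom), or left out each library.

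The members and lists were chosen with earlier results of these data known. Given with each library's value are the 7 polymerase I genes, every member past the threshold, up to 4 more per role by p, the highest, the lowest and, without WT replicate 3, the 2 most changed members, 27 in all. Of the other lists up to 4 genes per list past the threshold were to be named. Promoters were to be printed for members past the threshold that hold CACGTG; none did. Positions, GC content and length, as medians over principal transcripts, come from GENCODE M21 on GRCm38. Depth ran from 14161139 to 33459668 reads, and counting errors cover counting only, because PCR copies are not independent molecules.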

Additional observations from a re-analysis of the deposited data

How the results depend on the processing

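The median log2 fold change of the 50 genes stayed below 0 in every alternative run, and ran from -0.22 to -0.13 when 1 library was left out. The number that passed was far less stable. Leaving out 1 library gave 0 to 29 lower and 0 to 1 higher, against 819 to 3159 higher and 746 to 2999 lower over all genes, 1 to 50 lower and 0 to 6 higher among the other ribosome biogenesis genes, 0 to 2 lower polymerase III genes, and 0 to 6 lower and 0 to 4 higher ribosomal protein genes. With no filter 3 of the 50 and 6 of the other biogenesis genes were lower. With upper-quartile scaling 10 of the 50 were lower and 0 other biogenesis genes higher. Array weights, whose iteration stopped before its tolerance, gave 31 lower and 1 higher of the 50, 3266 and 3432 of all genes, 56 and 5 other biogenesis genes, 3 lower polymerase III genes, and 8 and 2 ribosomal protein genes. With the GC and length trend removed, 20 of the 50 were lower and 1 higher, with 2085 and 2345 of all genes, 28 lower other biogenesis genes, 2 lower polymerase III genes and 7 lower ribosomal protein genes. With that trend removed and WT replicate 3 left out, chosen after seeing the data, the numbers were 38 and 1, 3237 and 3333, 56 and 6, 3 lower, and 15 and 9. Ncl, at 0.10, ran from -0.21 to 0.27 when 1 library was left out, turning to -0.21 without WT replicate 3; it was -0.16 with array weights and -0.17 with the trend removed and WT replicate 3 left out. The cause of these changes was not tested.

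The labels do not say whether same-numbered samples were paired. Deviations of same-numbered libraries correlated at 0.0017, 0.19 and 0.24, and not every sample correlated best with its own number. With 3 libraries a group and WT replicate 3 apart from the other WT libraries, these values do not settle whether the samples were paired. With the replicate number as a block, 1179 genes were higher and 1062 lower, 4 of the 50 were lower and 0 other biogenesis genes higher; 2 of the 27 genes given by library lost their call, Polr1a and Nolc1 (limma adjusted p = 0.100 and 0.0857), and Grwd1 gained one (0.0339). With the block and the trend removed together, the 50 had 20 lower and 1 higher, all genes 2065 and 2339, other biogenesis genes 29 lower, polymerase III genes 1 lower and ribosomal protein genes 12 lower.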
